A study of Mus musculus with 6 samples.

Results

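The kinesin motor family was examined in cultured mouse blood progenitors, with the kinesins of cell division set against those that carry cargo. The genes were chosen by name and by brightness: every probe set other than a control that carried 1 gene symbol made of Kif followed by a digit was taken, and each gene was represented by the probe set with the highest mean log2 signal over the 6 arrays. This gave 37 genes from 99 probe sets, of 18193 genes named on the arrays. They fell into 11 mitotic kinesins, 13 transport kinesins and 13 kinesins of cilia, microtubule depolymerisation and other tasks, a division made from textbook roles. Of the kinesin-13 family Kif2c was placed in the mitotic class, and Kif2a, Kif2b and Kif24 among the remaining kinesins. The pairing of mitotic with transport kinesins was proposed with earlier results of these arrays known, so the differences between the classes are given as a description, with no test of one class against the other.

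The cells came from C57BL/6J bone marrow and were c-Kit+ Sca-1+ Lin- (KSL) cells, a sorted fraction in which blood stem cells and early progenitors are enriched. They were grown for 7 days on a layer of human umbilical vein endothelial cells (HUVECs) in serum-free medium with 5 mouse cytokines, and were then sorted again as KSL cells for RNA. In 3 cultures mD1R was added, and 3 cultures received PBS, the vehicle. All 6 cultures shared the endothelial layer and the cytokines. The labels do not spell out mD1R, a fusion protein in the study that carries part of the Notch ligand Delta-like 1 and binds endothelial cells. The labels call the cultures biological replicates without naming animals, so p-values measure the spread between cultures. RNA was measured on Affymetrix 3 prime arrays, with 1 array per culture, and a signal is a log2 MAS5 value throughout.

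Kinesins are motor proteins that use ATP to walk along microtubules or to take them apart. Mitotic kinesins slide spindle microtubules, move chromosomes and build the midzone where a dividing cell is cut, and in most cell types their genes are switched on in G2 and mitosis through CHR elements in their promoters, which the MuvB complexes read. Transport kinesins carry vesicles, mitochondria and endosomes outward along microtubules and are present in resting and in dividing cells. Blood stem cells divide seldom in the marrow and are driven into cycle by cytokines in culture.

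The promoters of the mitotic kinesins are shown first because most of them hold the same motif, whether or not the gene was called on the arrays. RefSeq promoter windows of 300 bases (250 before and 50 after the annotated start, build GRCm38.p6) were matched for 31 of the 37 genes. Kif20a, a mitotic kinesin that fell, is among the 6 with no window. The CHR core TTTGAA, searched on both strands, was present for 9 of the 10 mitotic kinesins with a window, for 1 of 10 transport kinesins (Kif1a, in 1 of its windows) and for 2 of 11 remaining kinesins. Over all 27025 genes with a window the share was 20.2%, and over the 9989 genes that were tested on the arrays it was 14.5%. Of the mitotic genes, Kif18a was the one without a match. A limit of 30 bases from the start, set after the positions were seen, kept 7 of the 10 mitotic kinesins, 0 of the 10 transport kinesins and 1 of the 11 others, against 2.32% of the genes tested. CCAAT, the box bound by NF-Y, was found on either strand for 6 of 10 mitotic, 3 of 10 transport and 5 of 11 remaining kinesins, and for 42.5% of the tested genes. The E2F-type motif TTTGGCGC was found for 2 mitotic kinesins, Kif15 and Kif18a, and for 1.09% of the tested genes, and TTTCCCGC for 0 kinesins and 2.37% of the tested genes. A match is a run of letters and not a shown binding site, and the motifs searched do not overlap one another in the windows printed here.

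The stretches run from 120 bases before to 30 bases after the annotated start, 5′ to 3′ on the gene's strand. Capitals mark the CHR core and the CCAAT box, each read on either strand and so printed as its reverse complement where it lies on the opposite one. The first 6 belong to mitotic kinesins with TTTGAA near the start, and the last to Kif3a, the transport kinesin that rose. Kif15, the other mitotic kinesin with a core within 30 bases of the start, is not printed. That core lay on the other strand, 19 to 14 bases before the start, and the gene was too dim to be tested.

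Kif23, chr9:61946770-61946919, - strand: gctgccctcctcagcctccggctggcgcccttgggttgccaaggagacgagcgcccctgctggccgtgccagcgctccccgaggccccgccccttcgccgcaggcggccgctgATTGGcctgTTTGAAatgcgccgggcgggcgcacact
Kif18b, chr11:102925095-102925244, - strand: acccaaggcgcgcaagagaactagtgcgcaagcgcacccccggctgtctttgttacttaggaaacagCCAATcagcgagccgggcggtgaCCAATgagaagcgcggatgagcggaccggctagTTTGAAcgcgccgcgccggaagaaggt
Kif4, chrX:100625945-100626094, + strand: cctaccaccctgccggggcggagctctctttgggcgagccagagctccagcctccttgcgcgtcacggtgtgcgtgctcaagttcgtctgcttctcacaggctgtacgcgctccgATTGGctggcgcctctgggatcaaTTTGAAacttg
Kif20b, chr19:34922238-34922387, + strand: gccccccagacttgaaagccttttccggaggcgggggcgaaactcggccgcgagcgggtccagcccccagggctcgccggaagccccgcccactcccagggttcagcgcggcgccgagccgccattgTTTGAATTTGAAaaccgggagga
Kif11, chr19:37376262-37376411, + strand: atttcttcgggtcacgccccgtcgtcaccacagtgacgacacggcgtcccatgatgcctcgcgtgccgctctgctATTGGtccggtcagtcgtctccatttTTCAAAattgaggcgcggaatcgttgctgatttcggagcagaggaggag
Kif22, chr7:127042391-127042540, - strand: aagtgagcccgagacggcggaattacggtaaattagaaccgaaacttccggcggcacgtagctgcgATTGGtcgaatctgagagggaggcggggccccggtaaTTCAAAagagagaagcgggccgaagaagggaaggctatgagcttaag
Kif3a, chr11:53567249-53567398, + strand: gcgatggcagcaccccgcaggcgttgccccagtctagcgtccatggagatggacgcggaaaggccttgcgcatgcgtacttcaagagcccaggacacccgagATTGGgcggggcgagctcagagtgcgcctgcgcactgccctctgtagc

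In Kif23 the CHR core occupied bases 3 to 8 after the start with a CCAAT box on the other strand just before the start, and in Kif18b it occupied bases 4 to 9 behind 2 CCAAT boxes. Kif20b carried 2 cores back to back. In Kif11 and Kif22 the core lay on the other strand, 19 to 14 and 17 to 12 bases before the start. The cores of Kif2c and Kif14 lay further off, at 103 to 98 and 228 to 223 bases before the start. The Kif3a stretch had a CCAAT box on the other strand, 18 to 14 bases before the start, and no TTTGAA.

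The median log2 signal of an array was 6.07 to 6.42, and 239 to 422 values per array were listed at 0. Among the spiked hybridisation controls, BioB set against BioC, BioD and cre separated mD1R replicates 1 and 2 and PBS replicate 1 (between -3.29 and -3.17) from mD1R replicate 3 and PBS replicates 2 and 3 (between -5.77 and -5.69). No label calls these sets batches, and the split was known from earlier work on these arrays. Within either set the comparison rests on a single array of 1 group. Of the genes that define the gate, Kit had signals of 11.37, 11.13 and 9.58 with mD1R and of 9.97, 8.85 and 9.21 with PBS (adjusted p = 0.109), and Ly6a, the gene of Sca-1, had no probe set with a single symbol. Ptprc, the pan-leukocyte antigen, lay between 13.29 and 13.84 with mD1R and between 13.78 and 14.14 with PBS. The lineage antigen genes Cd4 and Cd8a were dim, whereas Itgam, the gene of the myeloid antigen CD11b, lay between 11.56 and 11.94 with mD1R and between 11.66 and 12.31 with PBS.

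Mitotic kinesin transcripts were lower with mD1R. Of the 11 mitotic kinesins, 10 were bright enough to be tested, 8 fell (7 of them leaving aside Kif14, which is dim) and 0 rose, while 7.09% of all 12320 genes tested fell and 8.49% rose. A gene was tested when its mean log2 signal over the 6 arrays reached 5.27, the 40th percentile of probe sets, and it was called when the limma p-value adjusted over all 27022 tested probe sets was under 0.05. The changes of the 10 ran from -2.40 to -0.40 on the log2 scale with a median of -1.68, and the median over all 11, tested or not, was -1.60, whereas the median over all genes tested was 0.09. In 9 of the 11 every mD1R array lay below every PBS array, which was so for 18.1% of genes tested. In a sorted population fewer dividing cells and less transcript per cell cannot be told apart.

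**Figure D1:**
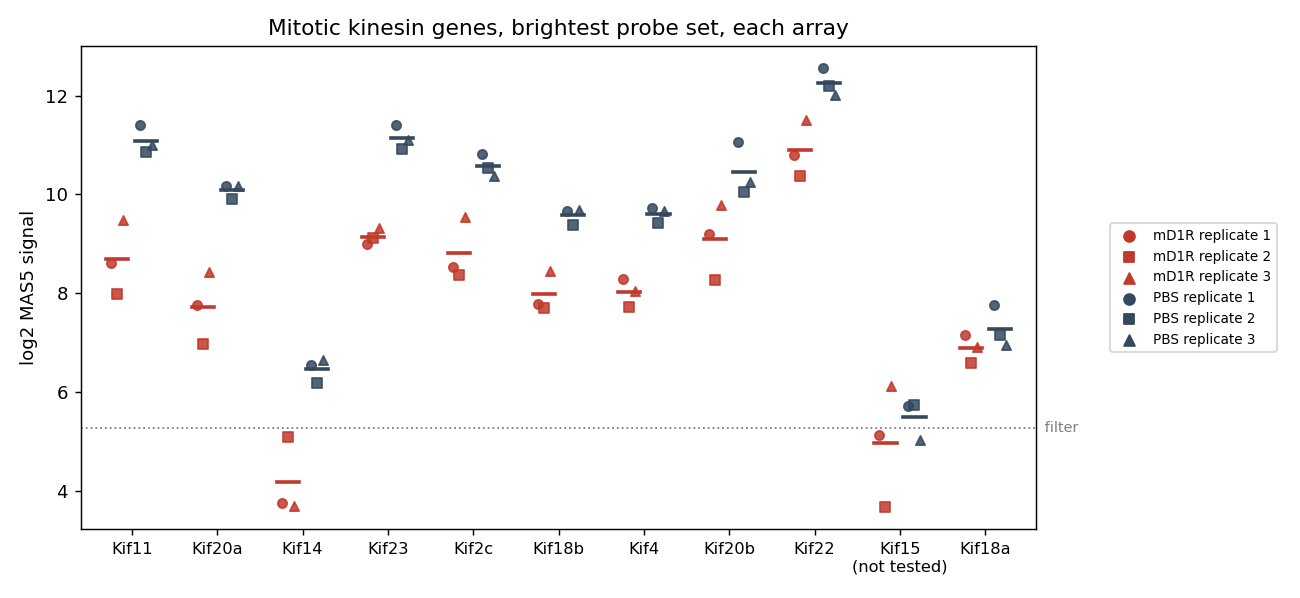
Log2 MAS5 signal (vertical axis) of the 11 mitotic kinesin genes (horizontal axis, ordered by change) on each of the 3 mD1R arrays (red, left) and 3 PBS arrays (dark, right). Marker shape gives the replicate, short bars the group means and the dotted line the filter at 5.27. The red and dark points are separate for 9 genes and overlap for Kif15 and Kif18a.

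The motors that build and hold the spindle came first. Kif11, the kinesin-5 that slides antiparallel microtubules apart to make the spindle bipolar, had signals of 8.62, 7.99 and 9.48 with mD1R, against 11.40, 10.86 and 11.01 with PBS. The groups were separated by more than a log2 unit, and the gene fell 5.26-fold (change -2.40 ± 0.36, limma SE, adjusted p = 0.0118). Kif15, the kinesin-12 that helps to keep the spindle bipolar, had signals of 5.13, 3.67 and 6.12 with mD1R and of 5.72, 5.74 and 5.03 with PBS. Its groups overlapped, and with a mean of 5.23 it lay just under the filter and was not tested. Kif14, just inside the filter with a mean of 5.32, marks the other side of that limit. Kif18b, a kinesin-8 that controls the length of astral microtubules, had signals of 7.78, 7.71 and 8.46 with mD1R, against 9.67, 9.38 and 9.68 with PBS, and fell 3.02-fold (change -1.60 ± 0.26, adjusted p = 0.0129). Its relative Kif18a, which damps chromosome movements at the metaphase plate, had signals of 7.15, 6.60 and 6.92 with mD1R, against 7.76, 7.15 and 6.95 with PBS. These groups overlapped, and the change of -0.40 (95% interval -1.13 to 0.33) did not pass (adjusted p = 0.437).

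Motors that act on chromosomes were also lower. Kif22, the chromokinesin Kid that pushes chromosome arms outward, had signals of 10.80, 10.37 and 11.51 with mD1R, against 12.56, 12.19 and 12.01 with PBS. It fell 2.57-fold (change -1.36 ± 0.30, adjusted p = 0.0274), and mD1R replicate 3 came within a log2 unit of the lowest PBS array. Kif4, the other chromokinesin measured, which also acts at the anaphase midzone, had signals of 8.30, 7.73 and 8.04 with mD1R, against 9.73, 9.43 and 9.67 with PBS. It fell 3.00-fold (change -1.59 ± 0.22, adjusted p = 0.0113), and here replicate 3 lay between the other mD1R arrays. Kif2c, the kinesin-13 MCAK, takes microtubules apart at centromeres. Signals of Kif2c were 8.53, 8.38 and 9.55 with mD1R, against 10.82, 10.53 and 10.38 with PBS, a 3.38-fold fall (change -1.76 ± 0.32, adjusted p = 0.0166).

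The kinesins of the midzone and of cytokinesis completed the class. Kif23, the motor of the centralspindlin complex, had signals of 8.99, 9.12 and 9.32 with mD1R, against 11.40, 10.92 and 11.11 with PBS. Its spread within a group was small (SD 0.17 and 0.24), and it had the smallest adjusted p of the family (change -2.0 ± 0.20, adjusted p = 0.00961, a 4-fold fall). Kif20a, which brings the chromosomal passenger complex to the midzone, had signals of 7.76, 6.97 and 8.44 with mD1R, against 10.17, 9.91 and 10.18 with PBS, and fell 5.15-fold (change -2.36 ± 0.36, adjusted p = 0.0118). Kif20b, a related kinesin-6 of late cytokinesis, had signals of 9.21, 8.28 and 9.78 with mD1R, against 11.07, 10.06 and 10.26 with PBS. The groups did not overlap, but the change of -1.37 ± 0.41 missed the threshold (adjusted p = 0.0660). It passed with arrays centred on their medians (0.0466), with array weights (0.0220), with the replicate block (0.0265) and without mD1R replicate 3 (0.0189). Kif14, which acts at the midbody, had signals of 3.77, 5.09 and 3.69 with mD1R, against 6.55, 6.19 and 6.65 with PBS. It passed the filter through its PBS signal alone, its mD1R mean of 4.18 being below the filter, so that its fall (change -2.28 ± 0.49, adjusted p = 0.0259) is imprecise in size.

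**Figure D2:**
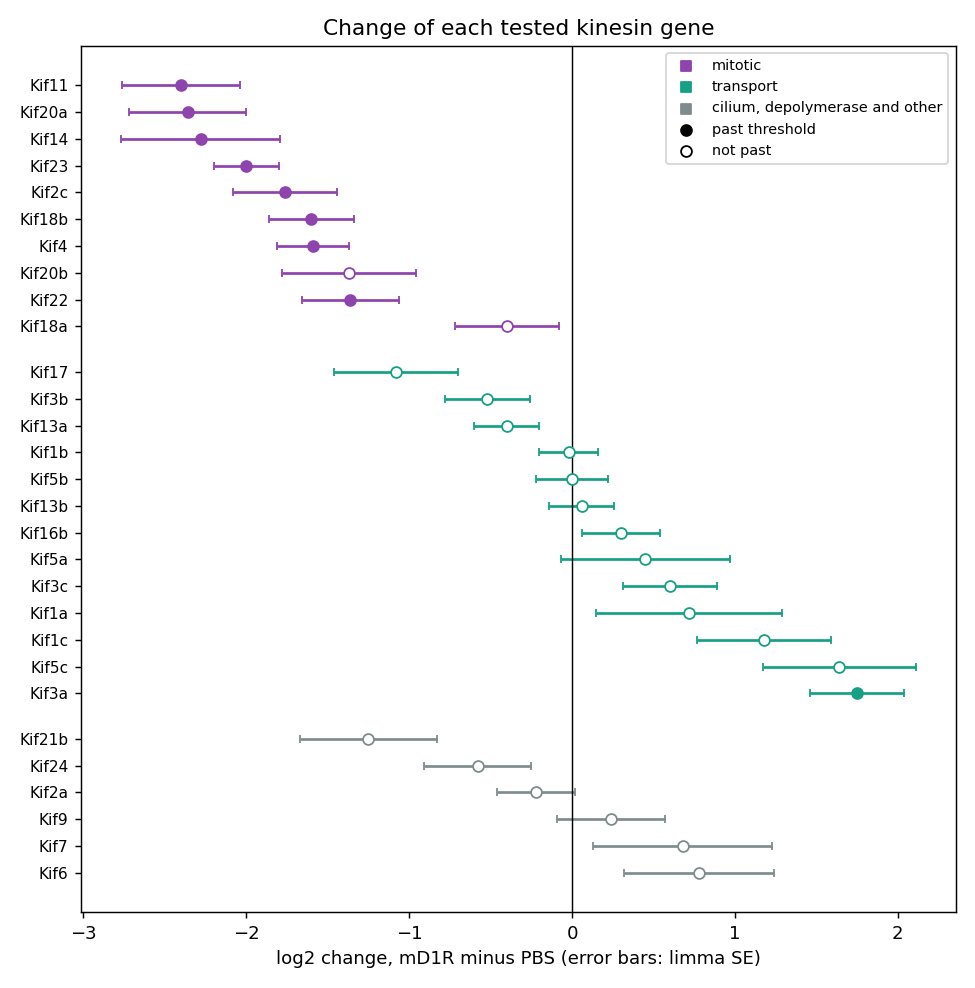
Log2 change (mD1R minus PBS, horizontal axis) of the 29 tested kinesin genes with limma standard errors as bars. Purple marks mitotic, green transport and grey the remaining kinesins; filled points passed adjusted p 0.05. Of the filled points 8 are purple and left of 0 and 1, Kif3a, is green and right of 0.

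Other probe sets of the same genes gave a second reading of the same RNA. The mitotic kinesins had 9 further tested probe sets beside the brightest ones. All 9 had a lower mean with mD1R, with changes from -2.34 to -0.59, and 6 of them fell by the test, where 6.5% of all tested probe sets fell and 6.13% rose. For Kif22 the further probe sets changed by -2.34 and -2.10, more than the brightest one, whose name ends in x_at, the mark of a probe set that may bind related transcripts. The further probe sets of Kif23 changed by -2.19 and -1.83, and both passed. The one at -1.83, counted among the 6, passed the filter through PBS alone (mD1R mean 4.68, PBS mean 6.51), so its size is imprecise. The name of the brightest probe set of Kif2c (-1.76) ends in x_at as well. Of its further tested ones 1 passed (-1.45) and 1 did not (-0.59, adjusted p = 0.250), and both changed less. In Kif11 1 passed (-2.14) and 1 missed narrowly (-1.30, adjusted p = 0.0507). The second tested probe set of Kif20b differed by -1.13, short of the threshold (adjusted p = 0.233).

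The fall of the mitotic kinesins differed in depth between the mD1R arrays. Relative to each gene's mean over the 6 arrays, the median deviation of the 10 tested genes was -1.07, -1.15 and -0.37 on mD1R arrays 1, 2 and 3, against 1.17, 0.70 and 0.88 on PBS arrays 1, 2 and 3. Replicate 3 was the highest of the mD1R arrays for 7 of the 10. Without it, 9 mitotic kinesins fell, with a median change of -1.93, while 11.6% of all genes tested fell, against 7.09% with all arrays. Within the BioB set that holds mD1R replicates 1 and 2 the median change was -2.23, and within the set that holds mD1R replicate 3 it was -1.26. Kif4 differed by -1.71 and -1.51 in these sets and Kif23 by -2.34 and -1.70, while Kif22 differed by -1.97 and -0.59. The calls of Kif11, Kif20a, Kif4 and Kif23 were lost with no array left out other than PBS replicate 3, whereas that of Kif22 was kept only without mD1R replicate 3. The number of mitotic kinesins called as lower also hung on the PBS arrays, as did the share over all genes tested. It was 5 without PBS replicate 1 (2.51% of all genes lower) or PBS replicate 2 (0.958%). It was also 5 without mD1R replicate 2 (1.59%). Without PBS replicate 3 it was 0 in limma, in a setting where 0 of all 12320 genes were called (3037 had an unadjusted p under 0.05) and where 9 mitotic kinesins still had an unadjusted p under 0.05.

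Markers of cycling and of other blood cells moved with this result. The counts of markers that follow stand against 7.09% lower and 8.49% higher among all genes tested. Of 6 measured proliferation markers 5 fell, and Mki67, the gene of the Ki-67 antigen, had signals of 11.30, 11.54 and 12.38 with mD1R, against 13.52, 13.52 and 13.56 with PBS (change -1.79 ± 0.27, adjusted p = 0.0118). The summed signal of these markers was 14.17 to 14.73 with mD1R, against 15.54 to 15.78 with PBS. Of 11 mast cell markers 10 were tested, 7 rose and 0 fell (Mcpt4 with a PBS mean of 3.39, below the filter), and their summed signal was 15.53 to 15.83 with mD1R, against 13.39 to 13.73 with PBS. The summed signal of 10 neutrophil markers was 14.64, 16.93 and 18.25 on mD1R arrays 1, 2 and 3, against 17.96 to 18.33 with PBS, and of these Mmp9 fell. Of 6 macrophage markers 4 rose, with sums of 15.71 to 16.79 with mD1R, against 14.55 to 14.95 with PBS. Of 10 lymphoid markers 7 fell and 1, Il7r, rose, and of those that fell Cd3d, Cd7 and Ncam1 passed the filter through PBS alone (mD1R means 5.05, 3.78 and 4.4). The summed lymphoid signal, 12.74 to 14.21 with mD1R and 12.50 to 13.32 with PBS, was on the mD1R arrays mostly that of the Il7r probe set (14.13, 13.08 and 12.43). Megakaryocyte markers rose in 2 of 6 (sums 15.13 to 15.76 with mD1R, 12.99 to 14.31 with PBS), and of 3 tested erythroid markers Slc4a1 fell, with an mD1R mean of 3.49 below the filter and a PBS mean of 9.21 (list sums 8.53 to 9.43 with mD1R, 9.30 to 11.32 with PBS). Of 6 endothelial markers 4 lay below the filter and Pecam1 rose (sums 9.94 to 10.73 with mD1R, 9.24 to 9.45 with PBS). The sum on the mD1R arrays was mostly that of Pecam1 (9.20, 9.78 and 10.47). Kdr had a higher mean with mD1R (0.79) and did not pass. The 4 dim markers were not tested and changed by -2.65 (Cdh5), -1.41 (Emcn), -0.01 (Tie1) and 0.12 (Tek). The part of these cell types in the lower kinesin signals was not tested. The mitotic kinesins had their smallest median deviation of the mD1R arrays on replicate 3 (-0.37), an array that differed in several lists. Its neutrophil sum lay within the PBS range. Its proliferation (14.73) and mast cell (15.83) sums were the highest of the mD1R arrays, and its macrophage sum (15.71) the lowest. The mast cell markers were split there. Of the mD1R arrays, replicate 3 was highest for Cpa3, Fcer1a, Ms4a2 and Hdc. It was lowest for Mcpt1, Mcpt2, Mcpt4, Cma1, Tpsab1 and Kit, and Tpsb2 lay between. Hdc had a lower mean with mD1R than with PBS (change -1.34, adjusted p = 0.15). Replicate 3 also lay in the BioB set of PBS replicates 2 and 3. Which of these goes with the kinesin signals was not tested.

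Partners of the mitotic kinesins were lower too. Of 14 spindle and midzone partners, all tested, 13 fell and 0 rose, against 7.09% and 8.49% of all genes tested, and their median change was -1.74. Birc5 (survivin) of the chromosomal passenger complex, the cargo of Kif20a, fell by 2.20 ± 0.24 on the log2 scale (adjusted p = 0.00961). Prc1, the crosslinker of midzone microtubules that Kif4 binds, changed by -1.84 ± 0.23, Nusap1 by -2.01 ± 0.29 and the kinase gene Aurka by -1.95 ± 0.28, and each passed. Racgap1, the centralspindlin partner of Kif23, had signals of 8.85, 8.38 and 9.49 with mD1R, against 10.62, 10.50 and 10.39 with PBS (change -1.60 ± 0.28, adjusted p = 0.0159), and was singled out after its values were seen. Numa1, which gathers microtubules at the spindle poles, was the 1 member that did not pass (-0.34 ± 0.22, adjusted p = 0.341). Among kinesins whose names do not follow the Kif pattern, Cenpe, the kinesin-7 of kinetochores, had signals of 7.99, 8.04 and 9.18 with mD1R, against 10.26, 10.08 and 10.43 with PBS, and fell (change -1.86 ± 0.33, adjusted p = 0.0159). The minus-end spindle motor gene Kifc1 had signals of 7.68, 7.82 and 9.52 with mD1R, against 10.44, 10.51 and 10.56 with PBS, and fell as well (change -2.16 ± 0.45, adjusted p = 0.0234). Kifc3 had overlapping groups and did not pass (-0.79 ± 0.37, adjusted p = 0.197), and Kifc2 lay below the filter and was not tested.

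Transport kinesins did not share 1 direction. All 13 were tested, 1 rose and 0 fell, against 8.49% and 7.09% of all genes tested, so the share called was near the background. Their changes ran from -1.08 to 1.75 with a median of 0.30. In 3 genes every mD1R array lay above every PBS array (22.1% of all genes tested), and in 2 every mD1R array lay below (18.1% of all genes tested).

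**Figure D3:**
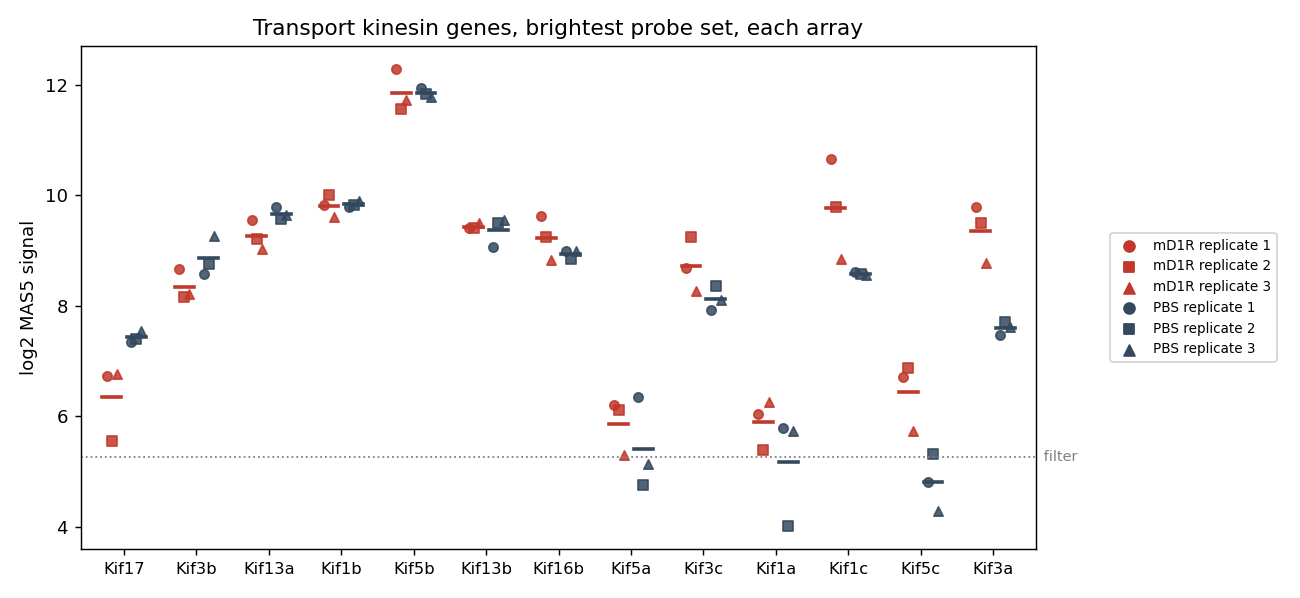
Log2 MAS5 signal (vertical axis) of the 13 transport kinesin genes (horizontal axis, ordered by change) on each of the 3 mD1R arrays (red, left) and 3 PBS arrays (dark, right). Marker shape gives the replicate, short bars the group means and the dotted line the filter at 5.27. For Kif3a the red points lie at 8.78 to 9.78 and the dark points at 7.47 to 7.71.

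The gene that rose was Kif3a, a motor subunit of heterotrimeric kinesin-2, which carries vesicles and drives intraflagellar transport. Its signals were 9.78, 9.50 and 8.78 with mD1R, against 7.47, 7.71 and 7.62 with PBS. The lowest mD1R array lay a log2 unit above the highest PBS array, and the rise was 3.37-fold (change 1.75 ± 0.29, adjusted p = 0.0136). Its 3 further probe sets changed by 1.81, 1.66 and 3.16, and each passed. The last of these was dim with PBS, at 5.67, 3.16 and 3.27, which makes its size imprecise. The change of the brightest probe set was 2.17 and 1.11 within the BioB sets that hold mD1R replicates 1 and 2 and replicate 3, and it was not called without PBS replicate 2 or 3 or without mD1R replicate 2.

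The partners of Kif3a in kinesin-2 differed among themselves. Kifap3, the non-motor subunit that links the motor pair to cargo, had signals of 9.18, 9.18 and 8.35 with mD1R, against 7.85, 7.64 and 7.67 with PBS, and rose (change 1.19 ± 0.28, adjusted p = 0.0321). Kif3b, the usual second motor subunit, had signals of 8.67, 8.15 and 8.21 with mD1R, against 8.58, 8.75 and 9.26 with PBS. The groups overlapped and the change was -0.52 (95% interval -1.12 to 0.09, adjusted p = 0.229). Kif3c, the alternative partner in neurons, had signals of 8.68, 9.24 and 8.26 with mD1R, against 7.92, 8.36 and 8.11 with PBS (change 0.60, interval -0.08 to 1.27, adjusted p = 0.214). Kif17, the homodimeric kinesin-2 of dendrites and cilia, had signals of 6.72, 5.55 and 6.77 with mD1R, against 7.35, 7.40 and 7.54 with PBS. Its groups did not overlap, but the change of -1.08 ± 0.38 missed the threshold (adjusted p = 0.0996), as did that of its second probe set (-0.74, adjusted p = 0.163). It passed with array weights (adjusted p = 0.0246) and when the kept probe sets of a gene were averaged (0.0425).

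Among the kinesin-3 motors, Kif1c, which moves vesicles, had signals of 10.66, 9.78 and 8.85 with mD1R, against 8.61, 8.58 and 8.56 with PBS. The PBS arrays were close together (SD 0.02) while the mD1R arrays were spread (SD 0.91), and the change of 1.18 ± 0.41 missed the threshold (adjusted p = 0.0967). Of its further probe sets 1 missed it narrowly (1.18, adjusted p = 0.0525) and 1 passed (1.11 ± 0.29, adjusted p = 0.0450). Without mD1R replicate 3 the change of the brightest probe set was 1.64 and passed (adjusted p = 0.00699), and within the BioB set of that array it was 0.28. Kif13a, which moves endosomes and melanosome cargo, had signals of 9.55, 9.21 and 9.03 with mD1R, against 9.78, 9.57 and 9.64 with PBS (change -0.40 ± 0.20, adjusted p = 0.229). Kif1b, a carrier of mitochondria and vesicles with 7 tested probe sets, had signals of 9.82, 10.01 and 9.60 with mD1R, against 9.79, 9.82 and 9.90 with PBS. Its change was -0.02 with an interval of -0.45 to 0.40. The further probe sets of Kif1b changed by -0.85 to 0.09, all but 1 of them negative, and none passed. In those at -0.29, -0.81 and -0.85 every mD1R array lay below every PBS array, which was so for 18.1% of genes tested. The mean over its kept probe sets changed by -0.36 (adjusted p = 0.308). Kif13b differed by 0.06 (interval -0.40 to 0.53) and the early endosome motor Kif16b by 0.30 (interval -0.26 to 0.86), and neither passed. Kif1a, the synaptic vesicle motor of neurons, had signals of 6.04, 5.39 and 6.25 with mD1R, against 5.78, 4.01 and 5.73 with PBS, near the filter (change 0.72 ± 0.57, adjusted p = 0.436).

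Conventional kinesin, or kinesin-1, has a ubiquitous heavy chain and 2 that are best known from neurons. Kif5b, the ubiquitous one, had signals of 12.29, 11.56 and 11.72 with mD1R, against 11.94, 11.84 and 11.78 with PBS. The groups overlapped and the change was 0.00 with an interval of -0.50 to 0.51. The 5 further probe sets of Kif5b differed by -0.81 to 0.20, and none passed. Kif5c had signals of 6.71, 6.87 and 5.73 with mD1R, against 4.80, 5.31 and 4.29 with PBS. It passed the filter through mD1R, its PBS mean of 4.80 being below it, and the change of 1.64 ± 0.47 missed the threshold (adjusted p = 0.0565). It passed with array weights (0.0404), with the replicate block (0.0386) and without mD1R replicate 3 (0.0248). The other probe sets of Kif5c lay below the filter and were not tested, and they differed in sign (1.14, -0.68 and -2.30). Kif5a had signals of 6.20, 6.11 and 5.29 with mD1R, against 6.35, 4.76 and 5.13 with PBS, and its groups overlapped (change 0.45 ± 0.52, adjusted p = 0.603). Of 7 neuron markers 4 lay below the filter and 0 of the 3 tested passed, and their summed signal was 8.09 to 8.14 with mD1R, against 7.75 to 8.58 with PBS. The light chain genes of kinesin-1 differed by 0.60 ± 0.20 (Klc1), 0.94 ± 0.47 (Klc3) and 0.83 ± 0.27 (Klc4), and none passed (adjusted p = 0.0839, 0.226 and 0.0782).

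**Figure D4:**
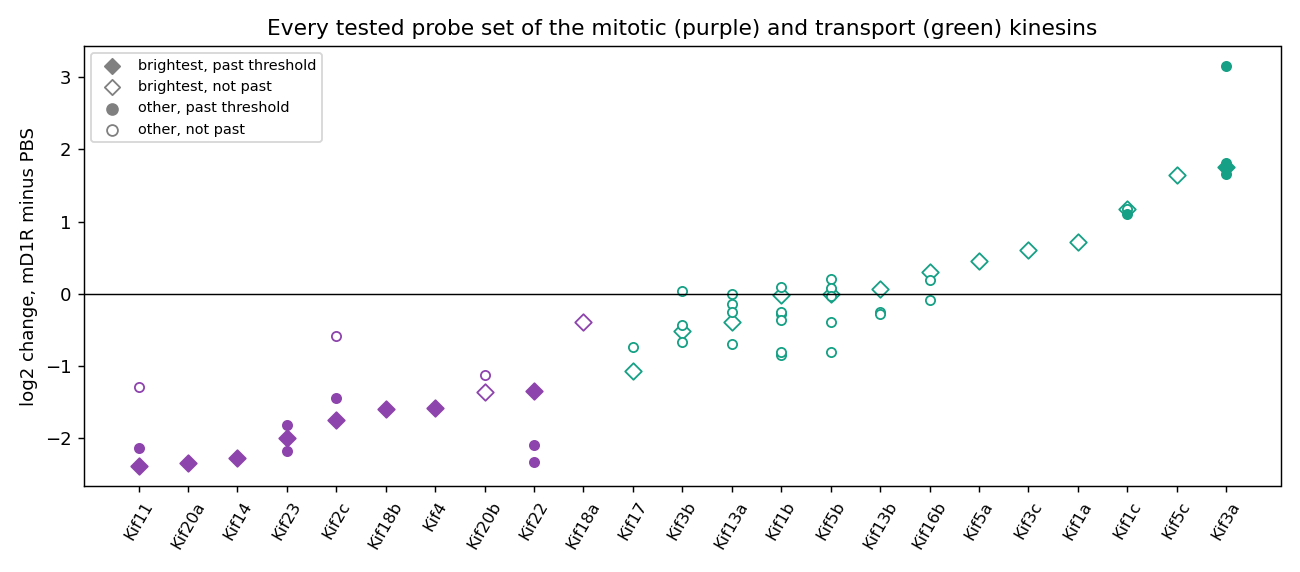
Log2 change (mD1R minus PBS, vertical axis) of every tested probe set of the mitotic (purple) and transport (green) kinesins by gene (horizontal axis). Diamonds mark the brightest probe set of a gene, circles the others, and filled symbols passed adjusted p 0.05. The 19 purple symbols all lie below 0, while the green ones span from -1.08 to 3.16.

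The 28 further tested probe sets of the transport kinesins had a median change of -0.20, opposite in sign to the 0.30 of the brightest ones, and 4 of them rose, 3 of Kif3a and 1 of Kif1c. Within the BioB set of mD1R replicate 3 the median of the 13 brightest probe sets was -0.03, and a stricter filter, the 60th percentile of mean signal, kept 9 of them with a median of 0.06. The median of the transport class was thus not stable in size or sign. Relative to each gene's mean, the median deviation of the 13 genes was 0.44, 0.17 and -0.17 on mD1R arrays 1, 2 and 3, against -0.04, -0.07 and -0.08 on PBS arrays 1, 2 and 3.

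Other genes of microtubule transport had 0 to 2 calls per list and direction, where 8.49% of all genes tested rose and 7.09% fell. Of 18 cargo adaptor genes on the arrays 14 were tested, 1 rose and 1 fell. Hook2, a dynein adaptor, rose by 2.16 ± 0.38 (adjusted p = 0.0159), and Trak2, which links kinesin-1 to mitochondria, had signals of 9.67, 9.60 and 9.77 with mD1R, against 10.49, 11.13 and 11.28 with PBS, and fell (change -1.29 ± 0.23, adjusted p = 0.0166). Of 17 tested genes of cytoplasmic dynein and dynactin, the motor of the opposite direction, 2 rose and 0 fell. These were the heavy chain gene Dync1h1, at 12.12, 12.30 and 12.68 with mD1R, against 11.17, 11.64 and 11.46 with PBS (change 0.94 ± 0.21, adjusted p = 0.0286), and the light chain gene Dynlt3 (1.10 ± 0.23, adjusted p = 0.0228). Of 16 intraflagellar transport genes 2 rose, Ift43 (2.51 ± 0.51, adjusted p = 0.0211) and Ift172 (1.12 ± 0.30, adjusted p = 0.0459). The medians of these 3 lists were 0.23, 0.23 and 0.29, against 0.09 over all genes tested. Of 11 tested tubulin genes, which encode the track, 2 rose (Tubb6 by 1.68 ± 0.39 and Tubb2a by 1.32 ± 0.34) and 1 fell (Tubb4b, -0.87 ± 0.19).

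None of the 13 remaining kinesins was called, and 7 of them lay below the filter and were not tested. With 6 tested, 0 calls is near the background, since 7.09% of all genes tested fell and 8.49% rose. The changes of the 6 tested ones ran from -1.25 to 0.78 with a median of 0.01. The most negative was Kif21b, a kinesin-4 that damps microtubule growth, with signals of 8.13, 9.12 and 9.79 with mD1R, against 9.78, 10.64 and 10.36 with PBS. Its groups overlapped, since mD1R replicate 3 lay above the lowest PBS array, and the change of -1.25 ± 0.42 did not pass (adjusted p = 0.0902). Kif2a, the kinesin-13 of spindle poles and of neurons, had signals of 9.77, 10.37 and 10.61 with mD1R, against 10.30, 10.54 and 10.57 with PBS (change -0.22, interval -0.78 to 0.34). Kif24 (-0.58), Kif9 (0.24), Kif7 (0.68) and Kif6 (0.78), kinesins of centrioles, cilia or Hedgehog signalling, did not pass either. The kinesins of this class are named after their values were seen. Kif2b, Kif12, Kif21a, Kif26a, Kif26b, Kif27 and Kif28 had means between 1.43 and 5.13, and their groups overlapped in all 7.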

How the data were processed

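The deposited log2 values, 1 column per array for 45101 probe sets, were made by the authors with MAS5, per the submitters' processing notes, with the version not given in the sources used here. Each array had a 2% trimmed mean of 500 on the linear scale and had thus been scaled on its own. MAS5 subtracts mismatch signals, so low values are noisy. No detection calls were used here. Symbols came from the platform annotation: 34945 probe sets had 1 symbol, 932 had several and were not named, and 1 of the latter named a kinesin.

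The test was limma's (version 3.58.1, R 4.3.3; lmFit, then eBayes allowing the variance to follow the mean), two-sided, run on these values with no block and no further scaling. Probe sets with a mean under the 40th percentile (5.27) were left out, and p-values were adjusted by Benjamini-Hochberg over the 27022 kept. Errors of changes are limma standard errors (n = 3 per group), and the 3 arrays per group limit the precision (median SE 0.31). Summed signals are log2 of the sum of linear signals. The members, classes and lists were chosen with earlier results of these data known, and no list was tested as a whole. The rule for named genes took every measured mitotic and transport kinesin, called members among the remaining kinesins, up to 4 called members per list (otherwise the 2 with the smallest p), Mki67 and the genes of the KSL gate. Named beyond it, after their values were seen, were the uncalled remaining kinesins, the Klc genes, Kifc2, Kifc3, Numa1 and Racgap1. So were the markers Mcpt1, Mcpt2, Mcpt4, Tpsab1, Tpsb2, Hdc, Il7r, Ncam1, Cdh5, Emcn, Kdr, Tek and Tie1. Proteins were not used. Same-numbered arrays correlated in their deviations at 0.313, 0.028 and 0.132. Differently numbered arrays were not compared, so these values cannot tell whether the numbers pair cultures. The main fit took no pairing, and a block on the replicate number was an alternative setting.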

Additional observations from a re-analysis of the deposited data

How the results depend on the processing

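The mitotic kinesins kept a negative median in all 21 alternative settings (-2.23 to -1.26). The lowest and highest came from the BioB sets, -2.23 with mD1R replicates 1 and 2 against PBS replicate 1 and -1.26 with mD1R replicate 3 against PBS replicates 2 and 3. The count of mitotic kinesins lower was 8, where 7.09% of all genes tested fell. At an adjusted p of 0.01 it was 1 (Kif23), and 0 transport kinesins passed as higher. Of all genes 0.211% then fell and 0.39% rose. When 1 array was left out the mitotic count ranged from 0 to 9, and the share of all genes that fell from 0 to 11.6%. The count of transport kinesins higher ranged from 0 to 3, and the share of all genes that rose from 0 to 12.7%. The mitotic count of 0 arose without PBS replicate 3, where 0 genes passed the limma test in either direction and 3037 had an unadjusted p under 0.05. The called kinesins then had adjusted p from 0.0675 upward. With array weights 3 transport kinesins passed as higher and 1 as lower, where 15.5% and 13.2% of all genes tested did. With averaged probe sets 2 passed as higher and 1 as lower, where 7.78% and 7.61% of all genes did. With the replicate block 2 passed as higher and 9 mitotic kinesins as lower, the added genes being Kif5c and Kif20b. Of all genes 11.5% then rose and 9.47% fell. The transport median was 0.30, 0.06 with the stricter filter and -0.03 within the BioB set of mD1R replicate 3. With the classes drawn wider, 11 mitotic and 14 transport kinesins were tested. Of these 8 mitotic ones fell, and the medians were -1.60 and 0.18. The causes were not tested. Of the 9 called kinesins, 0 changed sign in any setting. Signal over background limits Kif14, Kif15, Kif1a, Kif5a and Kif5c.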
